A study of Gallus gallus with 24 samples.

Results

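A set of 161 genes, of 17136 in the count table, was lower in chick midgut mesoderm carrying RCAS-Hoxd13 than in control midgut, while its mean level in control hindgut stayed near that of control midgut. RCAS is a replication-competent retrovirus of birds, used to carry genes into chick tissue. The control groups were midgut and hindgut labelled RCAS-mGFP, a reporter virus, and the third group was midgut labelled RCAS-Hoxd13. Per the labels, the constructs were electroporated in ovo at stage HH 17 into lateral plate mesoderm at the level of the midgut, and messenger RNA was sequenced from intestinal mesoderm with the endoderm removed. All 3 groups therefore carry a virus label and are chick, with 4 libraries each. The sources used here do not give how far the virus had spread in each gut or whether embryos were pooled. The labels name embryonic days 12 and 14, but the tables for both days hold the same values, so the age behind these values is not known.

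Hoxd13 is a transcription factor gene at the posterior end of the HoxD cluster. Its expression in gut mesoderm is normally restricted to the most posterior gut. Mesoderm at each level of the gut forms smooth muscle and connective tissue and signals to the overlying epithelium, and misexpression of posterior Hox genes in midgut mesoderm is a classical way to ask which features of the hindgut they can impose. A gene lowered in Hoxd13 midgut but not in hindgut would be one whose change does not resemble the normal regional difference.

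The members were chosen from their own values. L is the log2 of CPM + 1, where CPM is the usual unit that scales each count by its library total. Members had a mean L at least 0.7 lower in Hoxd13 midgut 1 to 3 than in control midgut, every one of these Hoxd13 libraries below every control midgut, and a mean L in hindgut within 0.3 of that in control midgut. Every Hoxd13 midgut 1 to 3 lay below every control midgut in 1130 genes, and 685 of these also reached the difference of 0.7. Of the 685 genes, 512 were lower in hindgut by 0.3 or more, 12 were higher by that much and 161 were members. The differences used by this rule are given as a description. Tests of the same contrasts are given further below, and nothing is read from them about the members. The members nearest to the limit of 0.7 differed by 0.704, 0.708 and 0.712, and the nearest genes outside it by 0.699, 0.699 and 0.694. Within 0.1 of that limit there were 37 members above it and 37 genes below it that met the other conditions. For the hindgut limit the nearest values were 0.298, 0.299 and 0.2998 inside and 0.3003 and 0.301 among those outside.

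The genes appear only by Ensembl ID, the files do not pair these with symbols, and 0 of the 17136 IDs matched the reference gene table. What the members do, and whether they mark a cell type, could not be read from these data, and neither the labelled tissue nor the transgene was checked by marker genes. Only 2 members are named, the one with the largest mean difference and the one with the highest level in control midgut.

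Library totals ran from 7607185 counts in Hoxd13 midgut 4 to 10880695 in control midgut 3, and the next lowest was 8389592 in control midgut 4. Hoxd13 midgut 4, which the rule did not use, stood apart from the rest. Fewer genes were detected in it, 13480 against 14565 to 14832 elsewhere. Its top 100 genes by count made up 34.0% of the library, against 21.7% to 24.1%. Over the 12931 genes that passed a filter on low counts, the median change of L from control midgut was 0.13, 0.14 and 0.17 in Hoxd13 midgut 1, 2 and 3 and -0.24 in Hoxd13 midgut 4. Scaling by TMM, which allows for a few abundant genes that take up the counts, brought these medians to between -0.04 and 0.03. The labels do not say whether the libraries of a group came from separate embryos, so p-values measure the spread between these libraries, which may be technical.

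All 161 members passed the filter on low counts. Their mean counts in control midgut ran from 12.5 to 32038, with a median of 496, and 10 members had fewer than 50. The mean difference in L between control midgut and Hoxd13 midgut 1 to 3 ran from 0.70 to 2.31 with a median of 1.05, and it was 1 or more in 87 members and 2 or more in 3.

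ENSGALG00000008756 had the largest mean difference. Its level in CPM was 29.2, 19.1, 23.7 and 32.9 in control midgut 1 to 4, and 37.2, 20.4, 6.51 and 37.9 in control hindgut 1 to 4. In Hoxd13 midgut 1 to 4 it was 7.19, 4.67, 2.34 and 0.263. The Hoxd13 libraries lay below all control midguts, but control hindgut 3 fell below Hoxd13 midgut 1, so that hindgut and Hoxd13 midgut overlapped. The group means were 26.2 ± 6.08, 25.5 ± 15.0 and 3.61 ± 2.98 CPM (SD, n = 4 each). The value in Hoxd13 midgut 4 rests on 2 counts, and the ratio of the control midgut mean to it was 99.7 with an exact Poisson interval of 27.6 to 823, at 95% confidence and for counting error only.

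ENSGALG00000037953 was the most abundant member. It stood at 3861, 2672, 3377 and 3235 CPM in control midgut 1 to 4 and at 2877, 3089, 2263 and 3363 CPM in control hindgut 1 to 4. In Hoxd13 midgut 1 to 4 it was at 2250, 2135, 1352 and 805 CPM. Control hindgut 3 was again the lowest hindgut and lay only slightly above Hoxd13 midgut 1, so that the Hoxd13 libraries did not overlap with either control group, while the control groups overlapped with each other. The group means were 3286 ± 489, 2898 ± 468 and 1635 ± 682 CPM (SD, n = 4 each). The control midgut mean was 1.72 times that of Hoxd13 midgut 1 to 3 and 4.08 times the value in Hoxd13 midgut 4.

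**Figure D1:**
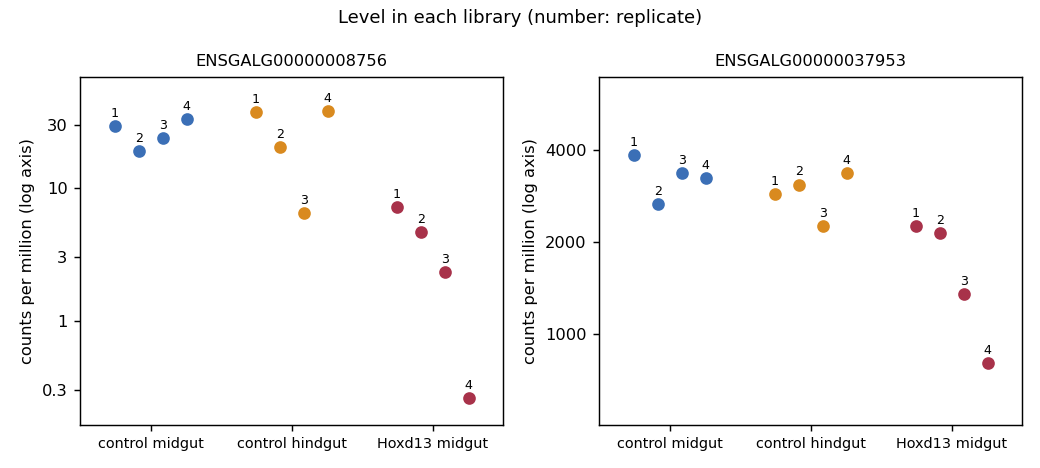
Level of the 2 named members in CPM (log axis), 1 point per library with its replicate number, by group. ENSGALG00000008756 ran from 37.9 CPM in control hindgut 4 to 0.263 CPM in Hoxd13 midgut 4, and in both genes control hindgut 3 was the lowest of the hindguts.

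Summed, the members held 2.86%, 2.17%, 2.60% and 2.69% of the counts in control midgut 1 to 4. They held 2.63%, 2.39%, 1.46% and 3.18% in control hindgut 1 to 4, and 1.63%, 1.27%, 0.759% and 0.327% in Hoxd13 midgut 1 to 4. The exact 95% binomial interval around these shares reached at most 0.0112 percentage points to either side, for counting error only. Control hindgut 3 fell below Hoxd13 midgut 1, and the other hindguts lay in or around the range of the control midguts. Averaged over 4 libraries with their SD, the share was 2.58% ± 0.294 for control midgut, 2.41% ± 0.720 for hindgut and 0.995% ± 0.570 for Hoxd13 midgut. In bulk tissue, fewer cells of a type that uses these genes and less RNA of them per cell cannot be told apart. Without ENSGALG00000037953 the shares were 1.90% to 2.47% in control midgut and 0.246% to 1.40% in Hoxd13 midgut.

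**Figure D2:**
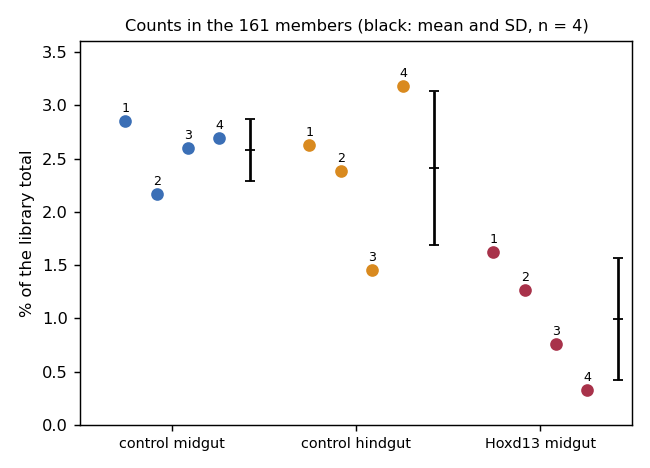
Share of each library's counts that fell in the 161 members, in percent of the library total, with the mean and SD of each group in black (n = 4). Control hindgut 3, at 1.46%, sits apart from the other hindguts and below Hoxd13 midgut 1, at 1.63%.

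The members were not lowered to the same degree in the Hoxd13 libraries. Their median change of L from the control midgut mean was -0.64, -0.94 and -1.58 in Hoxd13 midgut 1, 2 and 3, the libraries that chose them. With TMM scaling it was -0.76, -1.06 and -1.70. Hoxd13 midgut 3 was the lowest of these 3 libraries in 153 of the 161 members, against 33.9% of all genes tested. The order 1 over 2 over 3 held in 130 members, against 21.1% of all genes tested. Since all 3 libraries were used in the choice, this order is a description and was not tested.

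The same libraries differed in other measures. ENSGALG00000032039, the gene with the largest mean rise in Hoxd13 midgut 1 to 3 among the genes tested, was at 2049, 3064, 4134 and 6129 CPM in Hoxd13 midgut 1 to 4, against 0 to 0.834 CPM in control midgut. The top 100 genes by count made up 22.8%, 23.6%, 23.8% and 34.0% of these libraries in the same order. The part of either in the change of the members was not tested. In control hindgut 3, ENSGALG00000032039 was at 30.4 CPM, within the 21.5 to 59.0 CPM of the other hindguts. This gene is not a member, lies outside the rule for named genes and was picked with its values known.

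Hoxd13 midgut 4 was held out of the choice and shows whether the lower level recurred in a library outside it. It lay below every control midgut in 160 of the 161 members (99.4%), against 40.8% of the whole table and 49.4% of the genes tested. The same held for 511 of the 512 lowered genes also lower in hindgut and for all 12 that were higher in hindgut. The recurrence was thus not particular to the members. Hoxd13 midgut 4 lay below every control hindgut in 159 members, against 42.7% of the whole table and 51.8% of the genes tested. Below every other library it lay in 149, against 44.2% of the genes tested. The median change of the members in this library was -2.78, with quartiles of -3.63 and -2.12, against a median of -0.24 over all genes tested. The change ran from -5.95 to -0.18, and it exceeded 8-fold in 72 members. In 156 members the level was lower than the mean of Hoxd13 midgut 1 to 3. There were 4 members with 0 counts in Hoxd13 midgut 4, where 3 counts correspond to 0.394 CPM, and none at 0 in any other library.

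With Hoxd13 midgut 4 as a group of its own, edgeR's quasi-likelihood test called 148 of the 161 members lower than in control midgut at a Benjamini-Hochberg adjusted p under 0.05, against 29.2% of the 13669 genes in that fit. Against control hindgut it called 147, against 29.5%. No member was called higher in either test. The fit assumes that a lone library varies like the other groups, and the control libraries in it were also used to choose the members, which favours a difference. ENSGALG00000008756 had a log2 ratio to control midgut of -6.38, a size that depends on 2 counts. Its standard error, worked back from the log2 ratio and the F statistic, was 1.64. For ENSGALG00000037953 the log2 ratio was -1.83, with a standard error of 0.36 found in the same way. This library also stood apart in the number of genes detected and in the share of its top genes, and their part in the result was not tested.

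**Figure D3:**
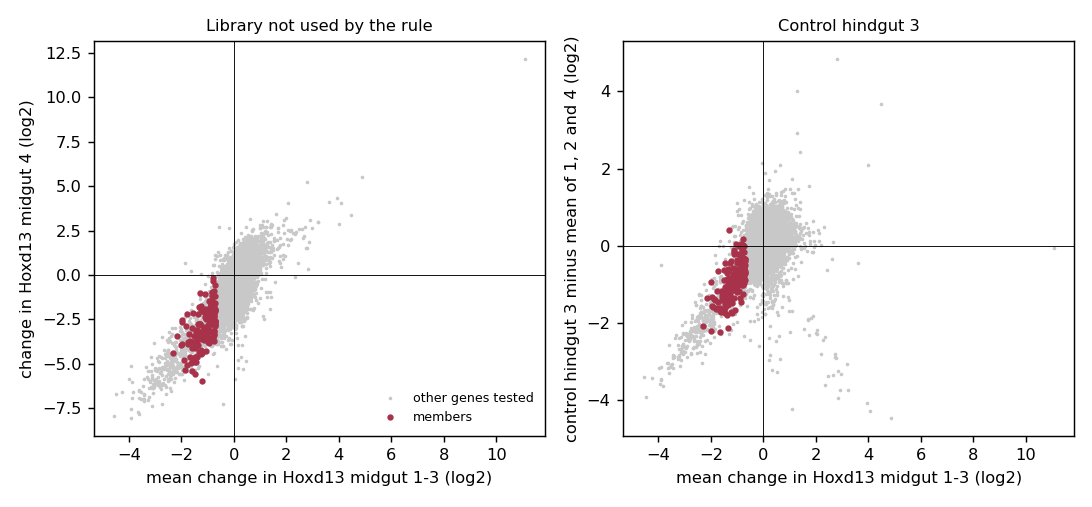
Each point is a gene tested, with members in red, and the horizontal axis is the mean change of L from control midgut in Hoxd13 midgut 1 to 3, which chose the members. On the left, the change in the held-out Hoxd13 midgut 4 had a median of -2.78 in the members. On the right, control hindgut 3 minus the mean of hindgut 1, 2 and 4 is plotted, and hindgut 3 was the lowest hindgut in 145 of the 161 members.

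The hindgut average hid a difference between hindguts. The median change of the members from control midgut was 0.05, -0.14, -0.80 and 0.28 in control hindgut 1, 2, 3 and 4, where that of all genes tested was -0.00, 0.07, 0.14 and -0.02. Control hindgut 3 was the lowest hindgut in 145 of the 161 members, against 21.0% of all genes tested, and control hindgut 4 the highest in 110, against 18.2%. Control hindgut 3 lay below every control midgut in 141 members, against 18.1% of the whole table and 21.3% of the genes tested. Control hindgut 1 did so in 14 members (8.70%, against 18.3% of the genes tested). Control hindgut 2 did so in 37 (23.0%, against 16.5%) and control hindgut 4 in 8 (4.97%, against 26.3%). The rule used only the mean of the hindguts, so it did not set which hindgut was low, but it did limit how low a single one could be once the others were near control midgut.

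Control hindgut 3 was not apart in depth or in the share of counts held by its top 100 genes. It had 10444020 counts and 22.6% of its counts in the 100 most abundant genes. It also had the fewest genes with counts outside Hoxd13 midgut 4, 14565 against 14604 to 14832 in the other hindguts. Beyond the members it did differ from other hindguts, and it was the highest hindgut in 46.6% of all genes tested. Chi-square per degree of freedom over genes was 86.1, 42.9 and 104 between it and hindgut 1, 2 and 4. For hindgut 1 with 2, 2 with 4 and 1 with 4 that value was 24.1, 47.3 and 21.5. Control midgut 3 shares the number of control hindgut 3, although the labels give no pairs. Their deviations from the group means correlated across genes at 0.532, against 0.416 to 0.538 for the other same-numbered controls. Libraries of unlike number were not compared in this way, so this does not show a pair. The median change of the members in control midgut 3 was -0.02. The median SD of L within a group was 0.26 in control midgut and 0.50 in control hindgut for the members, against 0.20 and 0.21 for all genes tested. In Hoxd13 midgut 1 to 3 it was 0.50, against 0.20.

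**Figure D4:**
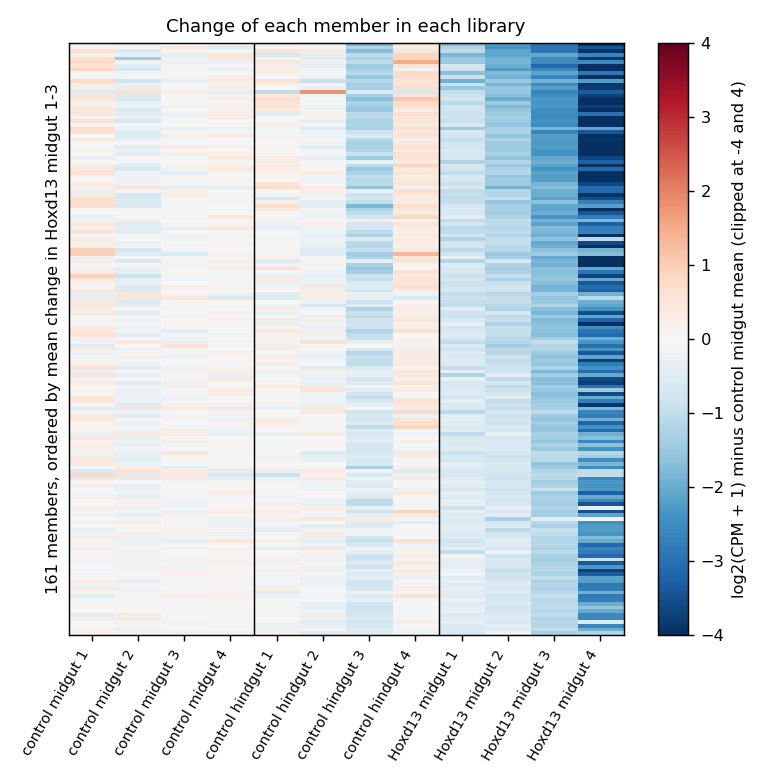
Change of each of the 161 members (rows, ordered by their mean change in Hoxd13 midgut 1 to 3) from the control midgut mean, as a difference of L, in each library (columns). The columns of Hoxd13 midgut 1 to 4 become darker from a median of -0.64 to -2.78, and control hindgut 3 is the only pale blue column among the hindguts, at a median of -0.80.

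The control libraries varied along one main pattern in these genes. After subtraction of the group means, the first principal component over the 8 control libraries held 73.2% of the variance of the members, against 47.7% for all genes tested, and 149 of the 161 members (92.5%) lay on the side that is low in hindgut 3. On the same side of their own first component lay 29.5% of all genes tested. Its weights were -0.74 for control hindgut 3 and 0.50 for control hindgut 4. For control midgut 1 and 2 they were 0.24 and -0.26. Over all genes tested the first component had weights of -0.60 and 0.43 for hindgut 3 and 4. For control midgut 1 and 2 it had 0.35 and -0.30, so this pattern of libraries was not particular to the members. Among the 512 genes lowered by Hoxd13 and also lower in hindgut, their own first component held 88.9%. Its weights were -0.71 and 0.49 for hindgut 3 and 4, and 494 genes lay on the side low in hindgut 3. The genes share their libraries, so these shares describe the libraries and carry no test.

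The genes that Hoxd13 lowered together with a lower hindgut level had the same order of libraries within control hindgut and within Hoxd13 midgut. Their changes were larger than those of the members except in control hindgut 4. Their median change was -0.14, -0.61, -1.72 and 0.06 in control hindgut 1 to 4. In Hoxd13 midgut 1 to 4 it was -1.13, -1.63, -2.47 and -3.91. They held 18.7%, 9.95%, 11.7% and 14.5% of the counts in control midgut 1 to 4. The share was 11.9%, 7.39%, 3.08% and 15.0% in control hindgut 1 to 4. It was 4.91%, 3.37%, 1.91% and 0.780% in Hoxd13 midgut 1 to 4. The difference in size between the sets follows in part from the rule and was not tested.

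**Figure D5:**
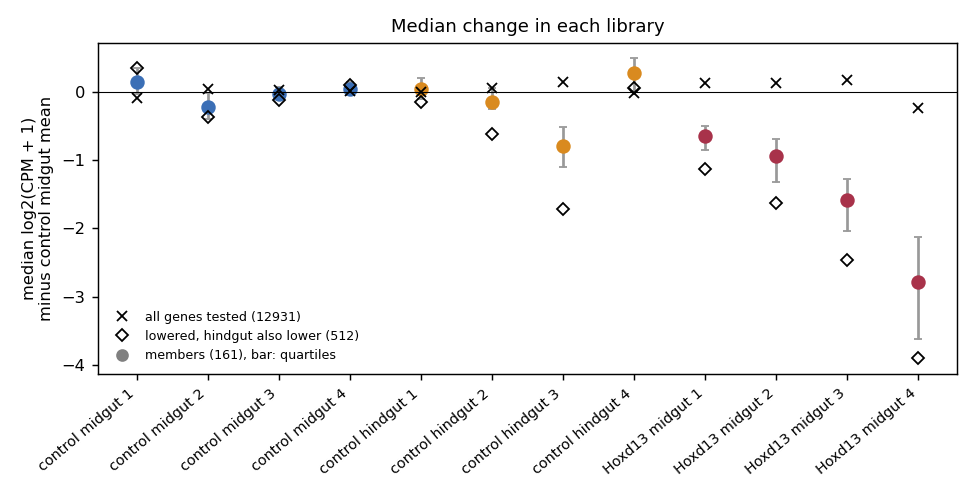
Median change of L from the control midgut mean in each library for the 161 members (filled circles, bars for the quartiles), the 512 genes that Hoxd13 lowered and that were also lower in hindgut (diamonds) and the 12931 genes tested (crosses). Control hindgut 3 stands at -0.80 for the members and at -1.72 for the 512 genes, and the other hindguts lie nearer to 0 in both sets.

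The line between the members and the genes that are also lower in hindgut depended on single libraries. Without control hindgut 3 the rule took 472 genes, 141 of the members and 331 of the 512 genes that had been set aside as lower in hindgut. Without control hindgut 4 it took 82 genes, 77 of them members. The Hoxd13 libraries did not move this line but did move the number of genes. Without Hoxd13 midgut 1 the rule took 355 genes and without Hoxd13 midgut 3 it took 102, with 0 of the 512 genes in either case. The hindgut mean was below the control midgut mean in 139 of the 161 members, and in 60 when control hindgut 3 was left out. The similarity of hindgut to control midgut in these genes was thus one of means and did not hold in every hindgut. In control hindgut 1 and 2 their median change, 0.05 and -0.14, lay within the -0.22 to 0.14 of the control midguts. Control hindgut 3 lay below control midgut, at a median change of -0.80, and control hindgut 4 above it, at 0.28.

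Between hindgut and control midgut, in a fit of all 12 libraries, edgeR called 0 of the 161 members, against 3.42% of the 12931 genes tested. At an unadjusted p under 0.05 there were 0 members, against 11.5%, and DESeq2 also called 0, against 5.49%. In a fit of the control libraries with the replicate number as a block, edgeR called 0 members, against 11.8% of the genes tested, with 7 at an unadjusted p under 0.05, against 26.6%. The rule set the hindgut mean near that of midgut, so these counts follow from the choice and say nothing further about the members.

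Between Hoxd13 midgut and control midgut, with all 4 Hoxd13 libraries, edgeR called 63 of the 161 members lower, against 3.89% of the genes tested, and nothing is read from this count because the rule used the same contrast. Leaving out control midgut 1, 2, 3 or 4 gave 2, 8, 2 and 2 calls, against 0.0612%, 0.397%, 0.0612% and 0.0459% of the genes tested. Leaving out control hindgut 1, 2, 3 or 4 gave 7, 5, 93 and 42, against 0.184%, 0.138%, 5.78% and 2.83%. Without Hoxd13 midgut 1, 2, 3 and 4 it was 149, 38, 2 and 22, against 10.9%, 1.79%, 0.023% and 0.911%. The share over all genes tested thus moved with the count of members. All 161 members had an unadjusted p under 0.05 in the fit of all libraries, as did 31% of the genes tested. The rule favoured small p-values in this contrast, so nothing is read from these counts either.

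Against control hindgut, edgeR called 20 members lower in Hoxd13 midgut, against 2.1% of the genes tested, and 21 without Hoxd13 midgut 4, against 3.28%. The count was 7, 8, 84 and 5 without control hindgut 1, 2, 3 and 4, against 1.13%, 1.03%, 5.3% and 0.818%. It was 12 without control midgut 3 or 4, against 1.36% and 1.33%. Without Hoxd13 midgut 1 and 3 it was 132 and 6, against 10.9% and 1.17%. Hoxd13 midgut 1 to 3 lay below every hindgut in 56 members, against 5.3% of the whole table and 6.35% of the genes tested. They lay below hindgut 1, 2 and 4 in 153 members, against 10.7% of the whole table and 13.1% of the genes tested. The comparison without hindgut 3 was chosen after its low level was seen. All these comparisons share the libraries that chose the members.

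A small number of members followed another order of the control libraries. In 11 members (6.83%) control midgut 2 and 3 both lay above control midgut 1 and 4, against 23.7% of all genes tested. Their median change was -0.39, 0.47, 0.29 and -0.29 in control midgut 1 to 4. In control hindgut 1 to 4 it was -0.30, 0.34, -0.29 and -0.33, and hindgut 2 was the highest hindgut in 10 of the 11. Among the 3062 tested genes with this order of midguts, hindgut 2 was the highest in 18.3%. In Hoxd13 midgut 1 to 4 their median change was -0.65, -0.91, -1.29 and -2.34, against -0.64, -0.95, -1.60 and -2.85 in the other 150 members. This group was chosen after its values were seen and was not tested.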

How the data were processed

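The authors deposited 2 tables with 1 line per Ensembl gene, holding whole-number estimated counts without normalization. The submitters' processing notes list Salmon, DESeq2 and GRCg6a, and give neither their versions nor their use. No annotation is given in the sources used here. The tables, labelled for embryonic days 12 and 14, differed in 0 of 17136 lines below the header, so the 24 samples of the labels were read as 12 libraries, and the ages were not compared.

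The members, lists and tests were chosen with earlier results of these data known. The rule for named genes took, without symbols, the member with the largest mean difference and the one with the highest level in control midgut. The gene lists prepared for symbols had no matched member and were not used.

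Tests used edgeR 4.0.16 under R 4.3.3 (quasi-likelihood F test, robust, TMM, filterByExpr with a count minimum of 10, Benjamini-Hochberg adjustment over all genes tested), in a fit of 3 groups, or of 4 with Hoxd13 midgut 4 apart. Rounding changed no value. CPM and L use library totals and are not scaled to gene length. The fit was tested on simulated counts. DESeq2 1.42.0, other scalings, filters and fits, and each library left out were the alternatives.

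Deviations of same-numbered control midgut and hindgut libraries from their group means correlated across genes at 0.515, 0.416, 0.532 and 0.538. These numbers were taken as pairs for the replicate block, although the labels give no pairing. Libraries of unlike number were not compared in this way, so the correlations do not show that equal numbers are pairs. For control and Hoxd13 midgut the values were 0.190, -0.262, 0.0990 and -0.170, and no pairs were taken. Between replicates, chi-square per degree of freedom over genes was 15.4 to 121, so all 12 libraries were kept as separate.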

Additional observations from a re-analysis of the deposited data

Results flagged for a closer look

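Within groups of 4 libraries, 18 combinations of a measure and a group were searched for an extreme library. Chance alone would flag about 1 in 20 combinations, and 3 of the 18 were flagged. Genes detected were high in control midgut 1, at 14818. They were low in Hoxd13 midgut 4, at 13480. The top 100 genes by count made up 34.0% of Hoxd13 midgut 4, more than in the rest of its group. None was found for the levels of the 2 named members, the summed share or the median change of the members, control hindgut 3 included.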

How the results depend on the processing

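The members below every control midgut in Hoxd13 midgut 4 numbered 159 to 161 in 6 alternatives. As reported, 49.4% of the genes tested had that order. The median change of the members in that library, -2.78, was -3.33 with a pseudocount of 0.25 and -2.265 with one of 4. It was -2.86 to -2.78 without single control midguts. The number of members, 161, was 87 with a limit of 1 on the midgut difference, 86 with a limit of 0.2 on the hindgut difference, 290 with Hoxd13 midgut 4 included, and 82 to 472 without single libraries. TMM scaling gave 198 genes, of which 120 were among the 161. Members called lower in Hoxd13 midgut against midgut, 63, numbered 153 with DESeq2 (9.67% of all genes tested, against 3.89% with edgeR), 31 without a filter (0.89%), 2 to 149 without single libraries (0.023% to 10.9%), and 20 when the third group was not fitted (1.91%). Against hindgut, 20 became 136 with DESeq2 (9.6%, against 2.1%), 5 to 132 without single libraries (0.818% to 10.9%), and 2 when the third group was not fitted (0.663%). The members with Hoxd13 midgut 1 to 3 below every hindgut, 56, numbered 56 to 153 without single hindguts. Members called between hindgut and midgut stayed at 0 in 18 alternatives, against 2.19% to 11.8% of the genes tested. With the replicate block the counts were 58 and 15 for Hoxd13 midgut against midgut and hindgut (3.59% and 1.32% of the genes tested). For hindgut against midgut the count was 0 (2.72%), and no count moved by over 1.5 times. That block also paired the Hoxd13 libraries with the controls by number, although no pairs were taken for them from the data. Fewer libraries entered the smaller fits, and the causes of the other shifts were not tested. The 10 members under 50 counts are the least precise.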
